A study of Mus musculus with 36 samples.

Results

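The 36 genes described here mark the endothelium of blood vessels, the cell layer that lines arteries, veins and capillaries. They were taken by name, and each gene was represented by the probe set annotated to it alone that had the highest mean signal over all 36 arrays. All 36 had such a probe set, out of 18194 genes on the array that had one, and 62 probe sets in all carried their names. Gene expression was measured on Affymetrix Mouse 430 2.0 arrays in the fourth inguinal mammary glands of female mouse fetuses, in which the ductal epithelium and the peri-ductal stroma around it had been cut out separately by laser capture microdissection. The dams had received vehicle, 250 ng of bisphenol A (BPA, a plastics monomer with estrogen-like activity) per kg of body weight per day, or 10 ng of ethinyl estradiol (EE2, a synthetic estrogen) per kg per day from embryonic day 8 (E8), and the fetuses were collected at E19. Wild type fetuses, written ERα(+/+), and fetuses lacking estrogen receptor alpha, written ERα(−/−), came from matings of heterozygotes on the C57BL/6 background. Both genotypes were studied under each exposure. Each of the 12 combinations of compartment, genotype and exposure had 3 arrays, from fetuses of 3 litters. The deletion was inherited and not restricted to a cell type. The tissue caught by the laser was a mixture of all cells within the outline, so every value below is a level in a compartment and not in endothelial cells.

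Blood vessels form in the embryo when endothelial progenitors assemble into tubes and then sprout. Sprouting is driven by vascular endothelial growth factor (VEGF), which acts on the receptor kinases encoded by Kdr and Flt1, while the Tie1 and Tek receptors and the angiopoietins govern the stability of the new vessel. Endothelial cells are held together by VE-cadherin (Cdh5), PECAM-1 (Pecam1) and claudin-5 (Cldn5), and their identity is maintained by transcription factors of the ETS family, such as Erg and Fli1, and of the SOX F group, Sox7, Sox17 and Sox18. In the mammary gland the vessels run in the stroma and not within the epithelial ducts.

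The deposited signals were on a linear scale, and array medians lay between 12.0 and 44.1 (stroma) or 10.9 and 66.8 (epithelium). The number of arrays, 3 per group, limited the precision. The ratio of the 3′ to the 5′ probe set of Gapdh, a sign of RNA integrity, was 6.01 to 20.8 on stromal and 5.09 to 12.9 on epithelial arrays. The paper reports lower ratios for housekeeping genes that it does not name, and the reason for the gap was not tested. Esr1, the gene deleted in ERα(−/−) fetuses, ran from 20.3 to 397 in ERα(+/+) stroma and from 13.9 to 81.8 in ERα(−/−) stroma, and from 1.1 to 142 against 1.6 to 100 in the epithelium. The ranges overlapped in both compartments, and the position of this probe set relative to the deleted part of the gene is not given in the sources used here, so that it does not check the labels. For vehicle glands the paper scores Esr1 as detected in ERα(+/+) stroma and below its cutoff of 100 in ERα(−/−) stroma. Here no ERα(−/−) stromal array reached 100, and ERα(+/+) stromal arrays lay on both sides of it. Krt8, a keratin of luminal epithelium, was 1288 to 4223 in the epithelium and 3.8 to 646 in the stroma, and its ranges did not overlap. Col1a1, the chain of fibroblast collagen, was 2719 to 8838 in the epithelium and 8516 to 12639 in the stroma, so that this stromal gene was far from 0 on every epithelial array.

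Since ETS and SOX F factors belong to the set, its promoters were read for the core letters that these families bind. Promoter sequence (RefSeq, GRCm38.p6, the 250 bases before the transcription start) was matched for 19 of the 36 genes in 25 windows. The ETS core AGGAAG stood on either strand in 13 of the 25 windows (52.0%) and in 29.5% of all 32851 windows of the same length. With the ETS core CGGAAG counted as well, the shares were 52.0% and 39.2%. The other ETS core, CGGAAG, stood in 1 window (4.0%, against 13.6% of all), and the SOX core ACAAT in 6 (24.0%, against 27.7%). The windows of 5 genes are printed 5′ to 3′ on the strand of the gene, with the matches in capitals. Tie1 (chr4:118489850-118490099, minus strand) held both ETS cores, AGGAAG on the other strand as CTTCCT. Kdr (chr5:75978456-75978705, minus strand) held none of the 3 cores, and Tek (chr4:94739039-94739288, plus strand) held ACAAT on both strands. These 3 show the VEGF and angiopoietin receptor kinases. Clec14a (chr12:58269259-58269508, minus strand, with 1 ACAAT) and Rasip1 (chr7:45627287-45627536, plus strand, with 1 AGGAAG on the other strand) were added after their values were seen, since they had the highest and the lowest difference between the compartments.
Tie1: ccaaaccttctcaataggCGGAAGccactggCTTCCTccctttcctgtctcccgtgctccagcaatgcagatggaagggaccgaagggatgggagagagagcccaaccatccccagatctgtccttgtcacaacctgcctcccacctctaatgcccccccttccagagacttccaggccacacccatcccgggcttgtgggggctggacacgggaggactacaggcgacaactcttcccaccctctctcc
Kdr: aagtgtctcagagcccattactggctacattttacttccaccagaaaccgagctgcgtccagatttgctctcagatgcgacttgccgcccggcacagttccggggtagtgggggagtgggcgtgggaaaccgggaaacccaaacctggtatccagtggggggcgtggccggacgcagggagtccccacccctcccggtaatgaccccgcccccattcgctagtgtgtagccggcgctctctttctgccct
Tek: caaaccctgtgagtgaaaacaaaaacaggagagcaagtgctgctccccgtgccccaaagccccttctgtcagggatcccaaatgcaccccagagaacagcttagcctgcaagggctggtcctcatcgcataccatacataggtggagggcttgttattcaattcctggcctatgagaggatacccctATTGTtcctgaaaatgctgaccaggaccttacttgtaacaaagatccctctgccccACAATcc
Clec14a: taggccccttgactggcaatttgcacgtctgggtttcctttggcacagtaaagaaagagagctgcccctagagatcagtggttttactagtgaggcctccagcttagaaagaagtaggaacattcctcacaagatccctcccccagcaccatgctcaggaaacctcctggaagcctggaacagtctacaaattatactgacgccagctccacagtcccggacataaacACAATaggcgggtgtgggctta
Rasip1: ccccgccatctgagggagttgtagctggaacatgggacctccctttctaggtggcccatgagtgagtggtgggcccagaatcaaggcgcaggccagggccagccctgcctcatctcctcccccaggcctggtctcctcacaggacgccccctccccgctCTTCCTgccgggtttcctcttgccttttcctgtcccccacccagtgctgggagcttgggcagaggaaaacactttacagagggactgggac
A match of these letters is a description of the window and not a binding site.

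The compartments were compared first, since the endothelial genes mark a cell type of the stroma. Of the 36 genes, 34 were higher in the stroma (limma, adjusted p under 0.05, 18 arrays against 18 with the gland as a block), whereas 4.51% of all 45101 probe sets passed the same test in that direction. None of the 36 was lower, while 16.8% of all probe sets were. The median difference of the 36 genes was 1.77 on the log2 scale, and that of all probe sets was −0.35, so that the set stood 2.12 above the array as a whole. The 2 genes that did not pass were Esm1 and Rasip1. Fewer endothelial cells and less RNA per endothelial cell cannot be told apart in these mixed samples. The 26 further probe sets carrying the names of members were also all higher in the stroma, and 20 of them passed the test.

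**Figure D1:**
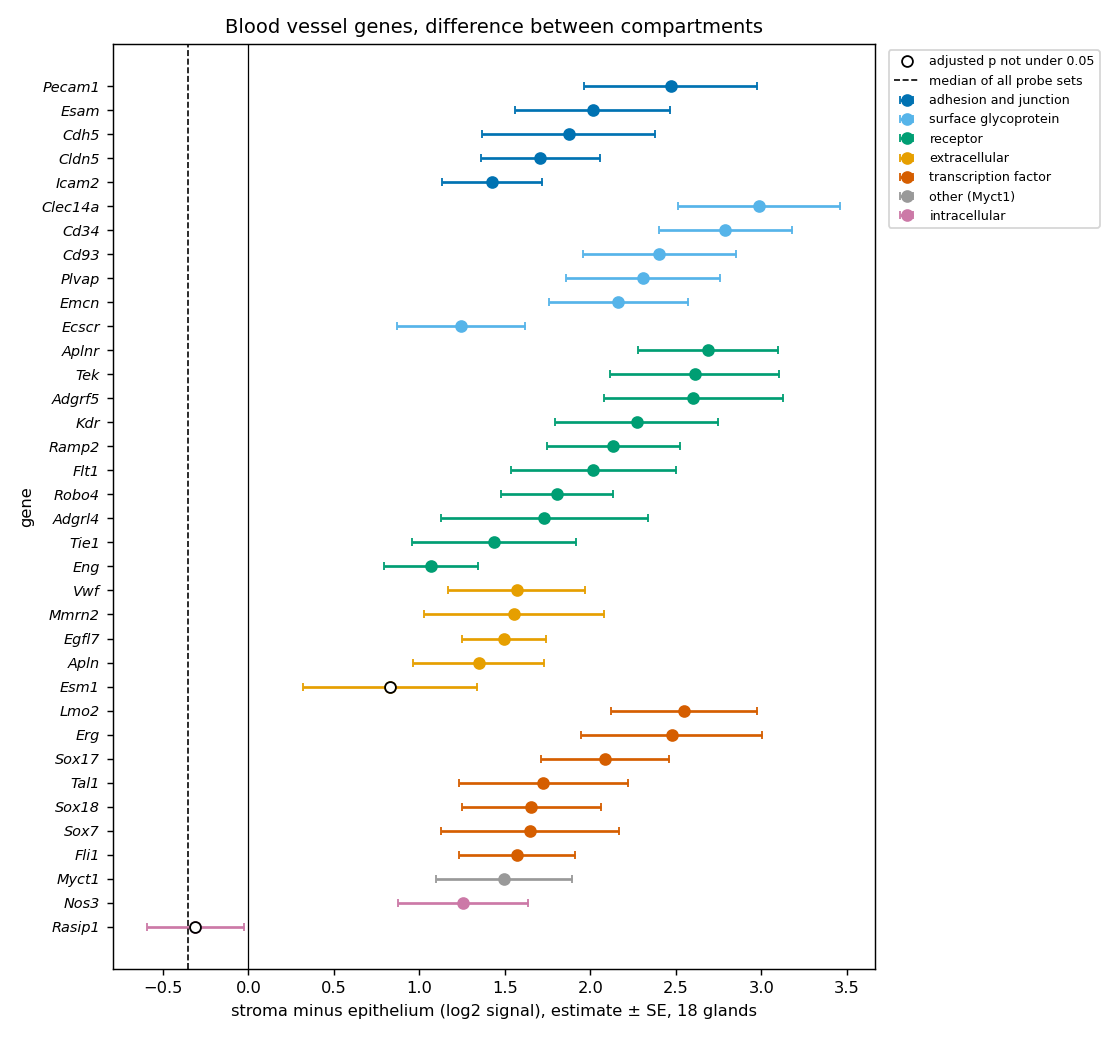
Difference between stroma and epithelium (log2) for each of the 36 genes, with its standard error, grouped by role; the dashed line marks the median of all probe sets (−0.35) and open circles mark genes with an adjusted p not under 0.05. Every gene lies to the right of the dashed line, from Rasip1 at −0.31 to Clec14a at 2.99, and the open circles are Rasip1 and Esm1.

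All 5 genes of cell adhesion and junctions were higher in the stroma, with a median difference of 1.87. Pecam1, the adhesion molecule CD31 by which endothelium is commonly stained, had a signal of 4.6 at the lowest, 90.3 at the median and 782 at the highest in the 18 epithelial arrays, and of 93.1, 522 and 1204 in the 18 stromal arrays. The stromal median was above most epithelial arrays, but the ranges overlapped, and 16 of the 18 glands had the higher signal in the stroma. The difference was 2.47 (SE 0.51, limma adjusted p = 0.00159), a level 5.55-fold higher in the stroma. Cdh5, which encodes the cadherin of endothelial junctions, ran from 4.1 through 307 to 1014 in the epithelium and from 29.5 through 831 to 1590 in the stroma, a difference of 1.87 (SE 0.50, limma adjusted p = 0.0113). Its overlap was wide, and 15 of 18 glands were higher in the stroma. Cldn5, the endothelial tight junction claudin, ran from 4.7 through 96.4 to 577 in the epithelium and from 58.4 through 366 to 910 in the stroma, and its difference of 1.71 (SE 0.35) had an adjusted p of 0.00148 by limma. Esam (2.01) and Icam2 (1.42), a pair of immunoglobulin-type adhesion molecules, made up the group.

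The surface glycoproteins had the highest median difference of the roles, 2.36, and all 6 passed. Clec14a, a C-type lectin of endothelium, ran from 0.5 through 13.9 to 93.2 in the epithelium and from 9.8 through 107 to 237 in the stroma. Its levels were low on this array, but the stroma was the higher compartment in all 18 glands. The difference was 2.99 (SE 0.47, limma adjusted p = 1.50e-04). Cd34, a sialomucin of capillary endothelium that blood progenitors and some fibroblasts also carry, ran from 5.6 through 122 to 588 in the epithelium and from 186 through 544 to 1701 in the stroma, with a difference of 2.79 (SE 0.39, limma adjusted p = 3.66e-05). It too was higher in the stroma of all 18 glands, as were Cd93 (2.40), another lectin-like receptor, and Plvap (2.31), which forms the diaphragms of fenestrated capillaries. Emcn, the sialomucin endomucin, had a difference of 2.16, and Ecscr, which regulates endothelial migration, the smallest of the role, 1.24.

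All 10 receptors passed, with a median difference of 2.07. Kdr, the main signalling receptor for VEGF, ran from 2.7 through 123 to 779 in the epithelium and from 53.4 through 428 to 1038 in the stroma, and the stroma was higher in 17 of 18 glands. Its difference was 2.27 (SE 0.48, limma adjusted p = 0.00193). Flt1, the VEGF receptor that also acts as a decoy, had lower signals, with medians of 57.5 and 143 and a difference of 2.02 (SE 0.48, limma adjusted p = 0.00514). The epithelial range, 1.1 to 269, lay mostly within the stromal one, 8.7 to 343.

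Tek, the receptor for the angiopoietins, ran from 2.6 through 121 to 702 in the epithelium and from 30.9 through 550 to 1517 in the stroma, a difference of 2.61 (SE 0.49, limma adjusted p = 8.41e-04) seen in 17 of 18 glands. Tie1, its orphan partner, was among the least separated of the called genes, with 0.7, 29.3 and 128 at the lowest, median and highest in the epithelium and 6.1, 62.5 and 304 in the stroma, a difference of 1.44 (SE 0.48, limma adjusted p = 0.0367) and 12 of 18 glands higher in the stroma. Aplnr, the receptor for apelin that is found in veins and sprouting capillaries, had a median of 396 in the epithelium and 2003 in the stroma. Its stromal arrays ran from 795 to 3602 and its difference was 2.69 (SE 0.41, limma adjusted p = 9.84e-05). Eng, a co-receptor of the TGF-β family, ran from 24.4 through 118 to 349 in the epithelium and from 104 through 241 to 479 in the stroma, and had the smallest difference among the receptors, 1.07 (SE 0.27, limma adjusted p = 0.00801). The adhesion G protein-coupled receptors Adgrf5 (2.60) and Adgrl4 (1.73), the adrenomedullin co-receptor Ramp2 (2.13) and the guidance receptor Robo4 (1.80) completed the group.

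Of the 5 genes for extracellular proteins 4 passed, with a median of 1.50 for the role. Vwf, von Willebrand factor, which endothelial cells store and release for clotting, had medians of 24.7 in the epithelium and 82.6 in the stroma and a difference of 1.57. Mmrn2, a matrix protein that binds VEGF, differed by 1.55, Egfl7, a secreted factor of vessel tubes, by 1.50, and Apln, the apelin ligand of sprouting tip cells, by 1.35. Esm1, a proteoglycan also made by tip cells, was near the bottom of the array in both compartments, with signals of 0.3 to 49.9 in the epithelium and of 0.8 to 87.5 in the stroma. Its ranges coincided for the most part, and its difference of 0.83 (SE 0.51) did not pass (limma adjusted p = 0.263).

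All 7 transcription factors were higher in the stroma, with a median of 1.73. Among the SOX F genes, which specify endothelial cells, Sox17 ran from 4.3 through 33.7 to 201 in the epithelium and from 32.9 through 155 to 566 in the stroma, a difference of 2.08 (SE 0.37, limma adjusted p = 5.19e-04). Sox18 ran from 9.8 through 84.9 to 544 and from 45.8 through 305 to 829, a difference of 1.65 (SE 0.41, limma adjusted p = 0.00606). Sox7, at 1.0 through 31.6 to 117 and 22.7 through 90.7 to 328, had the same difference, 1.65, with a wider error (SE 0.52, limma adjusted p = 0.0287). The 3 members of the group thus stood on the same side, Sox17 in 17 glands and the other two in 16 of 18. Of the ETS factors, Erg, which marks endothelial nuclei, ran from 0.9 through 90.6 to 329 in the epithelium and from 19.5 through 292 to 678 in the stroma, with a difference of 2.47 (SE 0.53, limma adjusted p = 0.00231). Fli1 was higher in the stroma of all 18 glands, running from 9.3 through 68.5 to 234 in the epithelium and from 45.8 through 170 to 396 there, although its difference was smaller (1.57, SE 0.34, limma adjusted p = 0.00246). The partners Tal1 (1.73) and Lmo2 (2.55) are shared with blood cells.

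The remaining 3 genes are Myct1 (1.49), Nos3 (1.25), the nitric oxide synthase of endothelium, and Rasip1, a Ras-interacting protein needed for vessel lumens. Rasip1 was the exception of the set. Its signal was 22.1 at the lowest, 64.8 at the median and 186 at the highest in the epithelium and 18.8, 52.5 and 155 in the stroma. The ranges all but coincided, and the difference of −0.31 (SE 0.28) did not pass (limma adjusted p = 0.471). After quantile normalization, which gives all arrays the same distribution, it was 0.09.

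**Figure D2:**
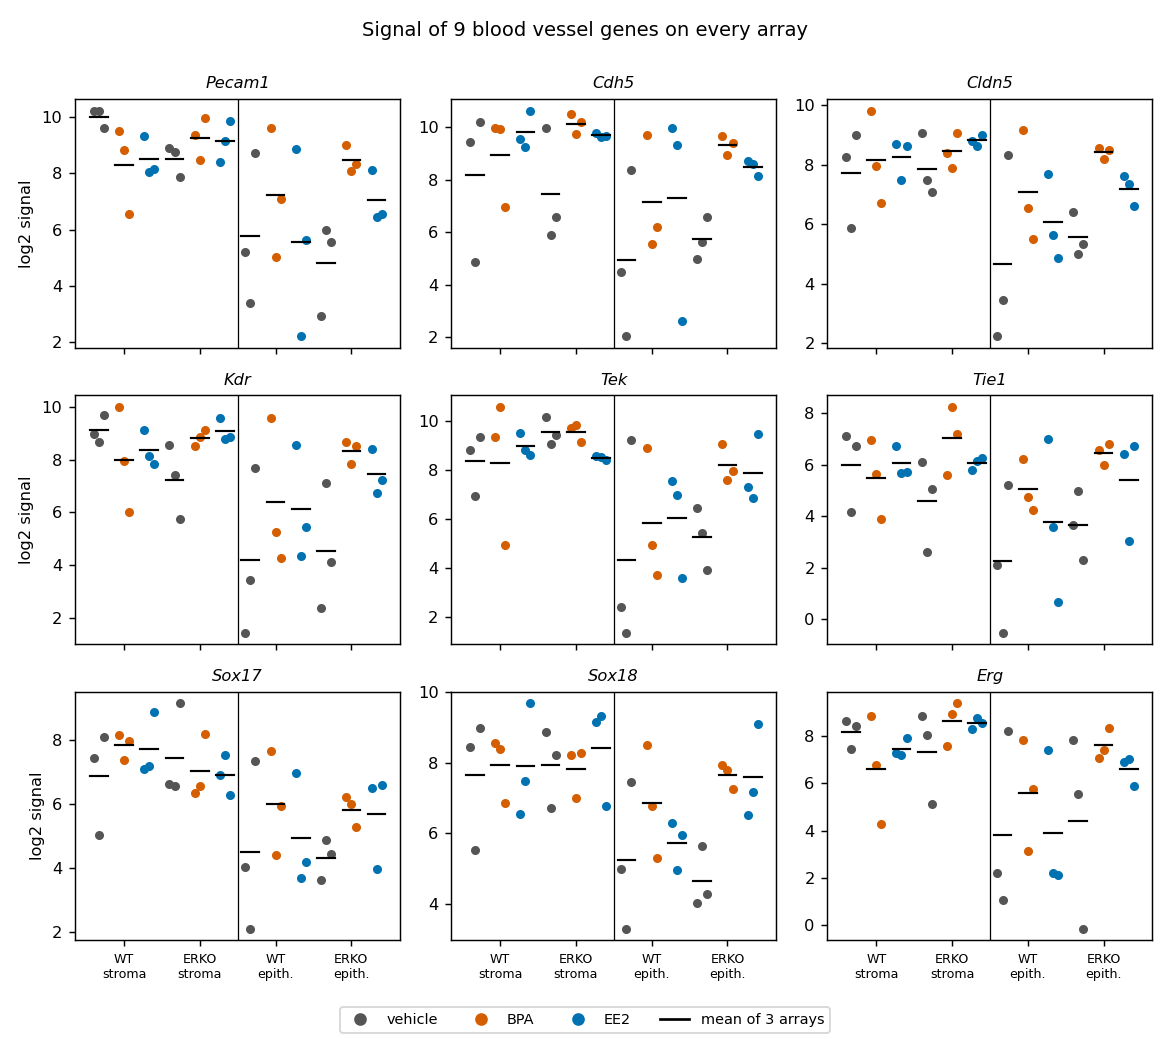
Signal (log2) of 9 of the genes on each of the 36 arrays by compartment, genotype (WT for ERα(+/+), ERKO for ERα(−/−)) and exposure, 1 point per array. The stromal points are high with few exceptions, such as Cdh5 in ERα(+/+) vehicle stroma (29.5 on the linear scale on 1 array), and the epithelial points are spread widely within ERα(+/+) groups.

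The related gene lists placed this difference among the other cell types. Of 39 other endothelial genes with a probe set, 26 were higher in the stroma and none was lower, with Arhgef15 (2.89), Ushbp1 (2.55) and Tmem204 (2.53) at the top. Of 29 angiogenic ligands, co-receptors and signalling genes, 13 were higher and 6 lower. Calcrl, the partner of Ramp2 in the adrenomedullin receptor, differed by 3.12 and Vegfc, the ligand of lymphatic growth, by 2.56, while Hey1, a Notch target, was lower in the stroma by −2.62. Vegfa, the principal ligand of Kdr, had a difference of −0.17 (limma adjusted p = 0.690). Of 7 lymphatic genes 3 were higher, Lyve1 (2.87), Foxc2 (2.41) and Flt4 (1.54), and Pdpn was lower (−1.30). Of 15 pericyte and smooth muscle genes 8 were higher, led by Abcc9 (3.01), Rgs5 (2.30) and Kcnj8 (2.14), which mark the mural cells around capillaries. Of the stromal lists, 20 of 22 fibroblast genes, 14 of 15 leukocyte genes, 8 of 8 adipocyte genes and 5 of 11 erythroid and platelet genes were higher, and all 19 epithelial genes were lower, with Krt8 at −4.48 and Cdh1 at −4.15. No gene of the skeletal muscle list, out of 11, passed. The blood vessel genes were thus higher in the compartment in which the lists of fibroblasts, leukocytes, adipocytes and mural cells were also higher, and the part of those cells in the difference was not tested.

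The level of the set varied far more among epithelial arrays than among stromal ones. The median of the 36 genes on an array, less the median of that array, lay between 2.01 and 3.18 (log2) on all 18 stromal arrays and between −0.87 and 2.19 on the epithelial ones. Among the 9 ERα(+/+) epithelial arrays, 3 stood at the stromal level, namely vehicle replicate 3 (2.18), BPA replicate 1 (2.19) and EE2 replicate 1 (2.04), 1 in each exposure group, and the other 6 lay between −0.87 and −0.02. In the ERα(−/−) epithelium the groups were closed. The 3 vehicle arrays lay between −0.35 and −0.09, the 3 BPA arrays between 0.98 and 1.38, and the 3 EE2 arrays between 0.65 and 1.16.

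**Figure D3:**
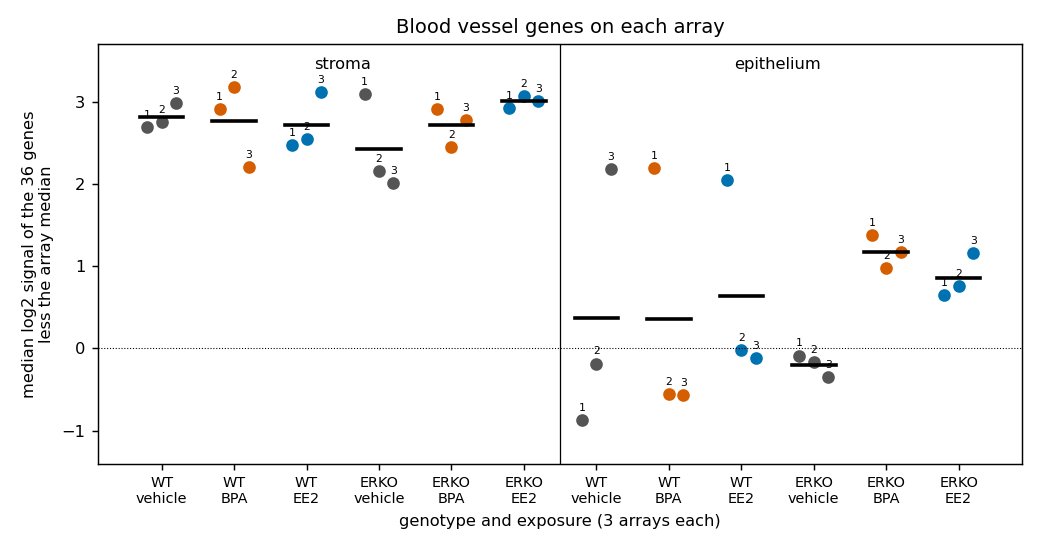
Median signal of the 36 genes less the median of the array (log2), 1 numbered point per array (WT for ERα(+/+), ERKO for ERα(−/−)), with the mean of each group as a black line. Stromal arrays lie between 2.01 and 3.18, and in the ERα(+/+) epithelium 1 array of each exposure stands at about 2 while the others lie below 0.

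The 3 ERα(+/+) epithelial arrays were also high in genes of several other stromal cells, but not in those of lymphatic endothelium. Their summed fibroblast level was 42047 to 52281, against 10874 to 29013 on the other 6 arrays. The pericyte and smooth muscle sum was 5279 to 10362 against 1906 to 4196, the adipocyte sum 19786 to 35904 against 2486 to 12817, and the sum of other endothelial genes 15578 to 22717 against 3992 to 8321. None of these ranges overlapped. The lymphatic sum did overlap, at 2506 to 3387 against 2790 to 4044, with the lowest array among the 3. The epithelial sum overlapped too, at 20065 to 25165 against 19014 to 31211. These values stood beside the endothelial level on the same arrays, and their part in it was not tested. A setting chosen after seeing the data left out the glands of these 3 arrays. Since their epithelial arrays were those of high endothelial level, a wider gap follows from the choice. In this setting 31 of the 36 genes were higher in the stroma, against 3.95% of all probe sets, and the set stood 2.51 above all probe sets.

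Gland by gland, between 24 and 36 of the 36 genes had the higher signal in the stroma. The median difference within a gland was 0.47 in ERα(+/+) BPA gland 1, 0.50 in ERα(+/+) EE2 gland 1 and 0.75 in ERα(+/+) vehicle gland 3, the glands of the 3 high epithelial arrays. It was 0.68 to 0.98 in the ERα(−/−) BPA glands and 1.04 to 1.34 in the ERα(−/−) EE2 glands. In the other 9 glands it was 1.58 to 4.01. After quantile normalization it was 1.18 to 1.47 in the ERα(−/−) BPA glands and 1.82 to 2.08 in the ERα(−/−) EE2 glands.

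Within the vehicle glands alone, 22 of the 36 genes were higher in the stroma (background 1.84%) and the median difference was 2.70. Within the EE2 glands the median was 1.59, and 2 genes passed, Plvap (3.05) and Cd34 (2.88), against a background of 0.557%. Within the BPA glands the median was 1.28 and no gene passed by limma, against 0.118% of all probe sets, while 15 had an unadjusted p under 0.05 (background 2.23%). The number of glands was 6 for each exposure. By genotype, 25 genes passed in ERα(+/+) (background 2.66%, median 2.32) and 10 in ERα(−/−) (background 1.14%, median 1.60). After quantile normalization these counts were 30 (background 3.73%) and 26 (background 2.99%), and 6 genes passed in the EE2 glands (background 1.24%), so that the counts by genotype and in EE2 glands depended on the scaling.

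Whether the gap between the compartments itself differed with exposure was tested by the interaction. No gene passed by limma. At an unadjusted p under 0.05 the gap was smaller under BPA than under vehicle for 8 genes (background 7.08%) and larger for none, among them Pecam1 (−3.05), Clec14a (−2.96), Kdr (−2.78) and Fli1 (−2.26). After quantile normalization it was smaller for 2 (background 2.54%). The lowest p was that of Fli1 (limma adjusted p = 0.549). Under EE2 the gap was smaller for 7 genes (background 6.56%), among them Tal1 (−2.79), Adgrf5 (−2.65) and again Clec14a (−2.62) and Fli1 (−2.46, limma adjusted p = 0.517). After quantile normalization 4 genes had the smaller gap under EE2 (background 3.04%). Both tests used the same vehicle glands. Between genotypes the gap was smaller in ERα(−/−) for Mmrn2 (−2.12) and Plvap (−2.00) at an unadjusted p under 0.05 (background 4.41%), and none passed after adjustment by limma. The Mmrn2 value includes an ERα(+/+) vehicle stromal signal of 2955 from a dim array, described with the stroma.

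Exposure was then compared within the epithelium, over both genotypes, with 6 arrays against 6. The paper took a single fetus of each genotype from a treated litter, so the 6 arrays of an exposure may come from 3 dams. The fit treated them as independent, here and in the stroma, which can make its p-values too small. After BPA no endothelial gene passed the adjusted threshold by limma. An unadjusted p under 0.05 was found for 14 of the 36 genes, all higher after BPA, which is 38.9% of the set against 17.3% of all probe sets in that direction. Without the 2 epithelial arrays of high skeletal muscle level described with the stroma, 9 genes did (background 14.3%). The median difference of the set was 1.50, and that of all probe sets was 0.68. After quantile normalization 3 genes (background 3.67%), and after centring each array on its median 2 genes (background 2.51%), had an unadjusted p under 0.05.

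Clec14a showed the lowest p of the set. In ERα(+/+) epithelium it was 1.0, 0.5 and 51.8 after vehicle and 64.2, 11.5 and 13.0 after BPA. In ERα(−/−) epithelium it was 6.7, 1.5 and 0.8 after vehicle and 50.3, 33.7 and 93.2 after BPA. All 3 ERα(−/−) BPA arrays were above all 3 vehicle arrays, and in ERα(+/+) the groups overlapped through vehicle replicate 3 alone. The difference over both genotypes was 3.80 (SE 0.99, limma adjusted p = 0.171), and 1.25 with an offset of 16 added before the log, since most vehicle signals were near the bottom of the array.

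The VEGF and angiopoietin receptors were also higher after BPA in the fit over both genotypes. Kdr was 2.7, 10.9 and 208 in ERα(+/+) vehicle epithelium and 779, 38.7 and 19.4 after BPA, and 5.1, 137 and 17.4 in ERα(−/−) vehicle epithelium and 415, 229 and 365 after BPA. Only in ERα(−/−) were the arrays of both exposures apart. The difference was 3.01 (SE 1.16, limma adjusted p = 0.234), with Tie1 at 2.81, Tek at 2.22 and Flt1 at 2.03. Tek and Flt1 did not have an unadjusted p under 0.05. Tek, at 87.5, 43.1 and 15.1 after vehicle and 530, 194 and 247 after BPA in ERα(−/−) epithelium, was also apart there, and in ERα(+/+) its highest array was a vehicle array (589).

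Among the junction genes Cdh5 differed by 2.90 (SE 1.21, limma adjusted p = 0.253), Cldn5 by 2.62 and Pecam1 by 2.56, and among the transcription factors Erg by 2.48, Sox18 by 2.31, Fli1 by 1.89 and Sox17 by 1.51. The smallest values were those of Eng (0.44), Sox7 (0.41) and Ecscr (0.40), which lay below the median of all probe sets. The SOX F genes thus ranged from 0.41 to 2.31, and none of these values passed after adjustment.

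Leaving out the 3 ERα(+/+) epithelial arrays with the highest fibroblast sum of their exposure group, a setting chosen after seeing the data, 2 genes passed in the comparison of BPA with vehicle, against 0.133% of all probe sets. These were Clec14a (4.43, SE 0.63, limma adjusted p = 0.0331) and Cldn5 (3.02, SE 0.47, limma adjusted p = 0.0408). With all arrays their SEs were 0.99 and 0.89. The arrays left out were those of high endothelial level, so a smaller spread follows from the choice. With the offset of 16, Clec14a differed by 1.34 and Cldn5 by 2.14, and both passed again (limma adjusted p = 0.0470 and 0.0250). Robo4 passed in this fit as well (1.37, SE 0.27, limma adjusted p = 0.0494). No background share was computed for the fit with the offset. Without the offset, an unadjusted p under 0.05 was found for 22 genes, all higher, against 18% of all probe sets. The set stood 1.03 above all probe sets, where it had stood 0.82 above them with all arrays. Leaving out ERα(+/+) vehicle replicate 3 alone also gave 2 calls (background 0.503%), with 23 genes at an unadjusted p under 0.05 (background 23.5%) and the set 1.42 above all probe sets. Leaving out ERα(+/+) BPA replicate 1 alone gave 6 such genes (background 12.4%), no call, and the set 0.44 above all probe sets. Each was the array of high endothelial level in its group, so the larger and the smaller difference follow from the choice.

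After EE2 no gene passed in the epithelium by limma, and 4 had an unadjusted p under 0.05, all higher (background 8.15%). These were Clec14a (2.72, SE 0.99, limma adjusted p = 0.509), Fli1 (1.78), Sox18 (1.71) and Rasip1 (1.04). Fli1 was 19.6, 13.0 and 127 after vehicle and 139, 54.2 and 67.7 after EE2 in ERα(+/+), and 10.3, 34.5 and 19 against 132, 59.8 and 90.6 in ERα(−/−). The ERα(−/−) groups did not overlap, and the ERα(+/+) groups overlapped through 1 vehicle array. The set as a whole had a median of 1.13, which was 0.73 above all probe sets, with Cdh5 (2.55), Kdr (2.45) and Tek (2.16) among the larger values and Sox7 (−0.95), Plvap (−0.75) and Eng (−0.37) at the other end. Without the same 3 arrays no gene passed by limma, 17 were higher and 1, Plvap, was lower at an unadjusted p under 0.05, against 9.93% of all probe sets in the higher and 0.936% in the lower direction. A smaller spread follows from the choice of arrays here too.

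**Figure D4:**
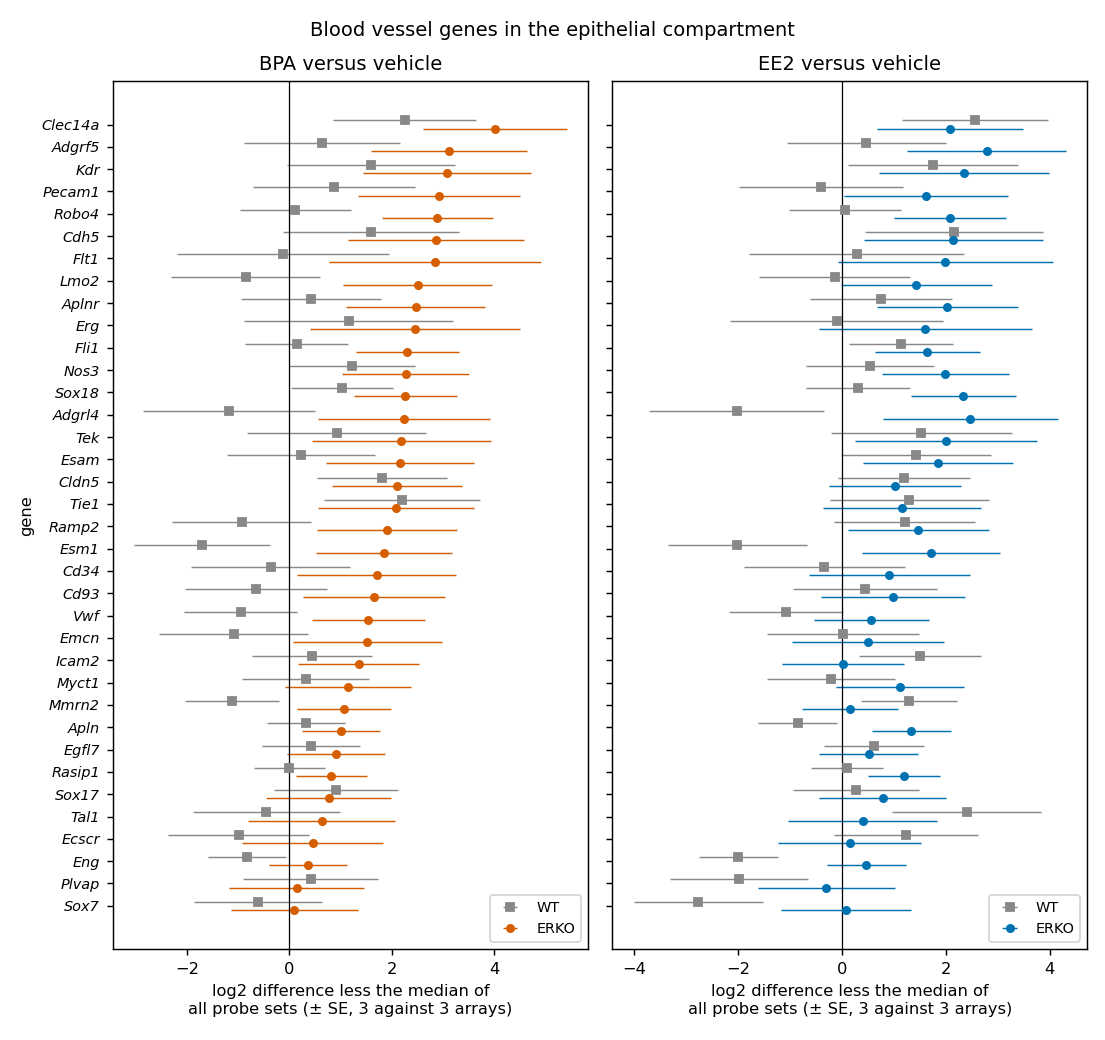
Difference from vehicle in the epithelium after BPA and after EE2 for each gene, less the median difference of all probe sets (log2), with its standard error, for ERα(+/+) (WT) in grey squares and ERα(−/−) (ERKO) in coloured circles. The ERα(−/−) values lie mostly to the right, with a median of 2.00 after BPA and 1.38 after EE2, against 0.27 and 0.37 in ERα(+/+), and the errors are wide.

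Split by genotype, the larger differences in the epithelium were measured in ERα(−/−). There 26 of the 36 genes had all 3 BPA arrays above all 3 vehicle arrays, against 24.8% of all probe sets, and the median difference was 2.74, which was 2.00 above all probe sets. None passed the adjusted threshold by limma, and 13 had an unadjusted p under 0.05 (background 10.8%), or 5 after quantile normalization (background 3.08%). Cdh5 was 31.7, 49.3 and 96.6 after vehicle and 805, 496 and 682 after BPA, and Pecam1 7.7, 62.7 and 46.6 after vehicle and 519, 273 and 319 after BPA. Both were several times higher on every BPA array. The largest differences were those of Clec14a (4.75, SE 1.40, limma adjusted p = 0.351), Adgrf5 (3.87), Kdr (3.83), Pecam1 (3.66) and Robo4 (3.64). The size for Clec14a depends on signals near the bottom of the array, since its 3 vehicle signals lay far below the medians of those arrays (26.2, 42.8 and 21.2). The vehicle signals of Pecam1 were not all below these medians. With an offset of 16 added before the log, which damps low signals, Clec14a differed by 1.92, Adgrf5 by 2.66, Kdr by 2.85, Pecam1 by 2.93 and Robo4 by 2.30, and their order changed.

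After EE2, 17 of the 36 genes had all 3 ERα(−/−) arrays above vehicle (background 16.5%), 6 had an unadjusted p under 0.05 (background 8.05%), or 1 after quantile normalization (background 2.85%), and none passed after adjustment by limma. Adgrf5 (3.38), Adgrl4 (3.07), Kdr (2.95) and Sox18 (2.94, limma adjusted p = 0.532) were the highest. Sox18 was 16.4, 50.2 and 19.4 after vehicle and 91.0, 145 and 544 after EE2, without overlap. Kdr did overlap, since its vehicle array of 137 exceeded an EE2 array of 108.

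In ERα(+/+) epithelium the set stood 0.27 above all probe sets after BPA and 0.37 after EE2. No gene had an unadjusted p under 0.05 after BPA (background 7.85% in the higher direction), and after EE2 only Eng did (−1.81, SE 0.76, limma adjusted p = 0.785), in the lower direction (background 2.19%). Eng was 66.5, 218 and 349 after vehicle and 160, 24.4 and 30.3 after EE2, and these ranges overlapped. The difference between genotypes was tested directly. For BPA its median was 1.62, or 1.49 above all probe sets, and no gene passed, with none at an unadjusted p under 0.05 (background 2.25%) and a lowest adjusted p of 0.9999 by limma. For EE2, 3 genes had an unadjusted p under 0.05 (background 4.95%), Esm1 (4.14), Eng (2.87) and Apln (2.59), and none passed after adjustment by limma. The responses of the genotypes were thus not shown to differ.

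Other cell type lists stood beside the endothelial genes in ERα(−/−) epithelium. After BPA, all 3 arrays were above vehicle for 28 of 39 other endothelial genes, 12 of 15 pericyte and smooth muscle genes, 8 of 8 adipocyte genes, 11 of 22 fibroblast genes, 5 of 15 leukocyte genes, 13 of 29 angiogenic genes, 2 of 7 lymphatic genes, 2 of 11 erythroid and platelet genes, 2 of 19 epithelial genes and 0 of 11 skeletal muscle genes, read against the same 24.8%. After EE2 the counts in the same order were 17, 7, 6, 4, 1, 5, 2, 2, 1 and 0, read against 16.5%. The median of the adipocyte list after BPA was 1.37 above all probe sets, that of the pericyte list 1.14, that of the other endothelial list 0.95 and that of the fibroblast list 0.45, against 2.00 for the 36 genes.

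The summed levels separated by exposure in part. The fibroblast sum was 16129 to 33514 after vehicle, 36088 to 49713 after BPA and 23899 to 47273 after EE2. The adipocyte sum was 6514 to 10836, 23388 to 27240 and 14079 to 20864, and the pericyte sum 1734 to 2069, 3887 to 5261 and 2604 to 5638, so that both were apart from vehicle under either exposure. The leukocyte sum overlapped, at 2697 to 6680, 5446 to 7823 and 3153 to 7114, and so did the lymphatic sum, at 2559 to 3758, 2217 to 3380 and 2335 to 3305. The epithelial sum overlapped as well, at 16830 to 29873, 21276 to 29576 and 24166 to 28122. The median signal of the array, 21.2 to 42.8 after vehicle, 50.1 to 66.8 after BPA and 42.7 to 64.0 after EE2, moved with exposure too. So did the 3′ to 5′ ratio of Gapdh, which was 8.56 to 12.6 after vehicle, 5.09 to 8.11 after BPA and 5.46 to 7.05 after EE2. The part of these other cell types, of the RNA integrity and of the array brightness in the endothelial values was not tested.

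**Figure D5:**
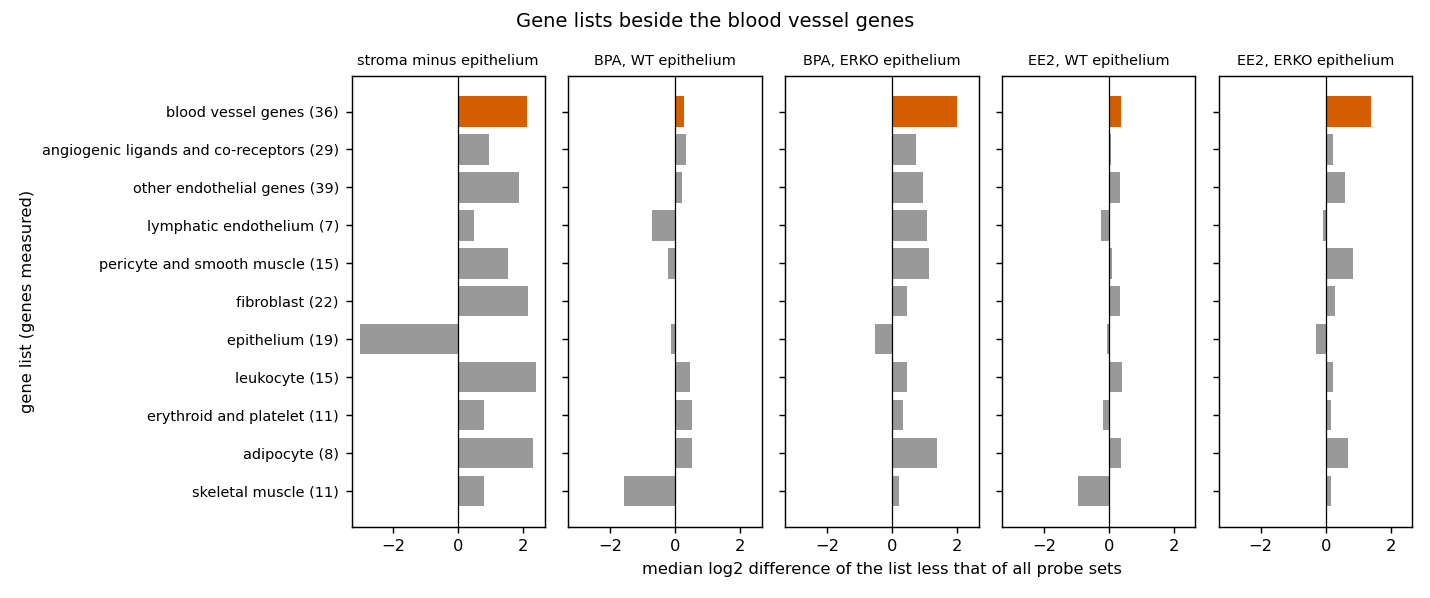
Median difference of each gene list less that of all probe sets (log2), for stroma against epithelium and for BPA or EE2 against vehicle in the epithelium of ERα(+/+), marked WT, or ERα(−/−), marked ERKO, as bars from 0. The blood vessel genes stand at 2.12 between compartments, and after BPA in ERα(−/−) epithelium at 2.00, above the adipocyte list at 1.37.

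BPA and EE2 were given at different doses, so a contrast between them mixes compound and dose. In the direct contrast the lowest unadjusted p of the 36 genes was 0.0886 in the epithelium and 0.0627 in the stroma by limma. In the epithelium the 36 genes had a median of 1.50 after BPA and 1.13 after EE2. In the stroma the medians were 0.33 and 0.13.

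In the stroma, where the endothelial genes were high, exposure left no value past the adjusted threshold by limma. Skeletal muscle genes set some exposed arrays apart. Their summed level was 41364 in ERα(+/+) EE2 replicate 2, 38016 in ERα(−/−) EE2 replicate 3 and 28677 in ERα(−/−) BPA replicate 1, against 122 to 754 on the other 15 stromal arrays, and the last 2 glands were also high in the epithelium (21375 and 14060, against 78.7 to 2440). The part of muscle in the values was not tested beyond leaving these arrays out, a setting chosen after seeing the data. After BPA no gene had an unadjusted p under 0.05 in either direction (background 3.19% higher and 1.35% lower), and the set stood 0.17 above all probe sets. Cdh5 (1.71), Flt1 (1.25) and Adgrl4 (1.14) were the highest and Mmrn2 (−1.28), Ramp2 (−0.63) and Pecam1 (−0.48) the lowest. After EE2, Cdh5 (1.93, SE 0.89, limma adjusted p = 0.996) and Ecscr (1.26, SE 0.56, limma adjusted p = 0.996) were higher at the unadjusted level (background 1.90%), and Mmrn2 (−1.89, SE 0.76, limma adjusted p = 0.996) was lower (background 2.62%). Without the arrays of high muscle level none of the 3 had an unadjusted p under 0.05, and neither had any other member (background 1.61% higher and 2.41% lower).

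Cdh5 was 691, 29.5 and 1180 in ERα(+/+) vehicle stroma and 991, 58.9 and 95.6 in ERα(−/−) vehicle stroma, against 754, 612 and 1590 and 883, 784 and 815 after EE2. Thus 3 of 6 vehicle arrays were low, while none of the EE2 arrays was. The array of 29.5, ERα(+/+) vehicle replicate 2, was 1 of the 3 dimmest of the study, with a median of 12.0. Mmrn2 was 208, 2955 and 206 in ERα(+/+) vehicle stroma, where the array of 2955 was this same dim array, and 42.2, 27.2 and 76.3 after EE2. In ERα(−/−) it was 97.4, 107 and 36.2 after vehicle and 40.2, 75.1 and 70.1 after EE2, which overlapped. Without the dim arrays, a setting chosen after seeing the data, none of the 36 genes had an unadjusted p under 0.05 for EE2 against vehicle in the stroma.

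In ERα(+/+) stroma Pecam1 was 1196, 1204 and 778 after vehicle, 721, 452 and 93.1 after BPA and 642, 267 and 287 after EE2. All its vehicle arrays were above all exposed arrays. This held for 2 of the 36 genes for BPA (background 3.91% lower), which is near the background share, and for 5 for EE2 (background 3.83%). In the fit the difference for BPA was −1.74 (SE 0.76, limma adjusted p = 0.9998). In ERα(−/−) stroma Pecam1 was 477, 431 and 233 after vehicle and 660, 358 and 1005 after BPA, overlapping and with the higher arrays under BPA. In ERα(−/−) stroma 4 genes were apart in the higher direction after BPA, Esam, Icam2, Vwf and Robo4 (background 9.39%), which is near the background share. After EE2 3 were higher, Icam2, Kdr and Robo4 (background 3.59%). Tek alone was apart in the lower direction after EE2, which is not above its background of 5.83%.

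Vwf had the lowest p for a difference between genotypes in the stromal response to EE2. It was 347, 129 and 200 in ERα(+/+) vehicle stroma and 59.9, 10.9 and 44.9 after EE2, and 12.5, 55.8 and 69.5 in ERα(−/−) vehicle stroma and 91.5, 39.6 and 319 after EE2. The ERα(+/+) groups did not overlap, with the EE2 arrays lower, and the ERα(−/−) groups overlapped. The interaction was 4.27 (SE 1.43, limma adjusted p = 0.9999), with Mmrn2 (3.22) and Plvap (2.08) also at an unadjusted p under 0.05 (background 1.73%), and none passed after adjustment by limma. The Mmrn2 value includes the ERα(+/+) vehicle signal of 2955 from a dim array. For BPA the interaction had an unadjusted p under 0.05 for Kdr (2.71), Esam (2.68) and Pecam1 (2.51) (background 2.82%), and again none passed. The tests of the EE2 and BPA interactions shared the vehicle arrays.

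Genotype was compared last, over all exposures, with 9 arrays against 9. In the stroma no gene passed by limma, and Tal1 alone had an unadjusted p under 0.05 (1.32, SE 0.54, limma adjusted p = 1.0, background 2.91% higher). This is not above the background share. Tal1, a factor of blood and vessel progenitors, was 116, 51.5 and 37.3 in ERα(−/−) vehicle stroma and 23.5, 8.5 and 20.4 in ERα(+/+) vehicle stroma. These vehicle arrays did not overlap, and those after BPA and EE2 did. How many of all probe sets were apart between genotypes in this way was not tested, so the separation has no background to be read against. The signals of Tal1 were also low, from 2.0 to 116 over all stromal arrays. The median of the set was 0.10 and that of all probe sets 0.14, with Adgrl4 (−1.23), Mmrn2 (−1.20) and Lmo2 (−0.88) at the lower end and Myct1 (0.83) and Erg (0.76) at the upper. Within the vehicle stroma alone 5 genes were lower in ERα(−/−) at an unadjusted p under 0.05 (background 1.89%), Mmrn2 (−2.80), Vwf (−2.51), Esam (−2.44), Lmo2 (−2.42) and Plvap (−1.75), and none passed after adjustment by limma. Both Mmrn2 differences between genotypes include the ERα(+/+) vehicle signal of 2955 from a dim array.

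In the epithelium no gene passed between genotypes by limma either. Myct1 alone had an unadjusted p under 0.05 (1.66, background 7.86% higher). Erg (1.78) and Tek (1.70) had larger differences with wider errors, and Esam, Adgrf5 and Robo4, all at −0.19, were the lowest. The median of the set was 0.76, or 0.38 above all probe sets, and leaving out 1 array moved the latter value between 0.04 (ERα(+/+) BPA replicate 3) and 0.67 (ERα(+/+) vehicle replicate 3). Within the vehicle epithelium alone the direction was the opposite, with a median of −0.30, 23 of the 36 genes lower in ERα(−/−), and none at an unadjusted p under 0.05 by limma.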

How the data were processed

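RNA from laser-captured fetal mammary epithelium and stroma was amplified by whole transcriptome amplification and hybridised to 36 arrays of 45101 probe sets. The authors deposited 1 linear intensity value per probe set and array. The submitters' processing notes name GCOS, and the methods describe RMA in Partek with log transformation, but the deposited intensity values were not logged, their array medians differed and 39 were 0, so their scaling is not known.

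Here each intensity was raised to at least 0.1 and its log2 was tested with limma 3.58.1 in R 4.3.3 (lmFit, eBayes, Benjamini-Hochberg over all probe sets, two-sided). The compartments were compared over 36 arrays with the gland as a block. Exposure and genotype were compared within a compartment over 18 arrays in 6 groups. These fits held no litter term, although fetuses of both genotypes may share a litter. Calls used an adjusted p under 0.05, and p-values measure the spread between these arrays. Of the probe sets 34958 were annotated to 1 symbol, 932 to several and 9211 to none. No filter on low signal was applied. Values were given for 13 genes of adhesion, signalling and transcription chosen by name and for the 3 highest and 3 lowest differences of a comparison, and genes at an unadjusted p under 0.05 were added after their values were seen. The members and the lists were chosen with earlier results of these data known. The gland was taken from the replicate number that stroma and epithelium share in the labels. Their deviations from the group means correlated at 0.112 on average for a shared number, above 0.1 in 10 of 18 pairs, and at −0.055 otherwise. The fit was checked on simulated data.

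Alternatives were quantile normalization, centring on the array median, an offset of 16, a mean signal of at least 50, the mean of all probe sets of a gene, array weights, blocks and leaving out arrays.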

Additional observations from a re-analysis of the deposited data

How the results depend on the processing

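The compartment difference kept its direction under every alternative run. The number of endothelial genes higher in the stroma was 29 without the dim arrays, 31 without the block on gland, 32 of the 33 tested at a mean signal of at least 50, 33 with array weights, 32 without the glands of high skeletal muscle level, and 31 to 34 when 1 gland was left out. Quantile normalization kept 34. The median above all probe sets ranged from 1.54, with an offset of 16, to 2.51, without the glands of the 3 ERα(+/+) epithelial arrays of high fibroblast level. That setting, the one without the 3 dim arrays (array median under 16) and the one without arrays of high muscle level (summed level over 10000) were chosen after seeing the data.

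In the exposure and genotype comparisons no adjusted call was made under any alternative, except for BPA in the epithelium (2 without the 3 ERα(+/+) arrays, 0 to 2 leaving out 1 replicate). The counts at an unadjusted p under 0.05 depended on the setting. For BPA in the epithelium (14) the count was 3 after quantile normalization, 2 after median centring, 22 without the 3 arrays, 8 without the dim arrays, 9 without the muscle arrays and 6 to 23 leaving out 1 replicate. For EE2 in the epithelium (4) it was 1 after quantile normalization, 1 after centring, 18 without the 3 arrays, 1 without the dim arrays, 2 without the muscle arrays and 1 to 20 leaving out 1 replicate. For genotype in the epithelium (1) it was 0 after quantile normalization, centring, the filter or leaving out the dim arrays, 2 with an offset, with the mean of all probe sets or with weights, and 0 to 8 leaving out 1 replicate. For BPA in the stroma (0) it was 2 after quantile normalization, 1 after centring, 2 with an offset, 1 with the mean of all probe sets, 4 with weights, 1 without the dim arrays and 0 to 5 leaving out 1 replicate. For EE2 in the stroma (3) it was 1 with the mean of all probe sets, 0 without the dim or the muscle arrays and 0 to 4 leaving out 1 replicate. For genotype in the stroma (1) it was 2 after quantile normalization, centring or an offset, 0 without the muscle arrays, and 0 to 5 leaving out 1 replicate. The widest ranges came with ERα(+/+) vehicle replicate 3 in the epithelium, without which 23, 20 and 8 genes had an unadjusted p under 0.05 for BPA, EE2 and genotype. The cause was not tested.

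Replicate numbers also run across exposures and genotypes. With the replicate number as a block, the counts at an unadjusted p under 0.05 in the epithelium were 12 for BPA and 3 for EE2, and the pairing made or lost no adjusted call. Same-numbered arrays of different exposures correlated at 0.0253 (stroma) and −0.0024 (epithelium), and those of different genotypes, which may be littermates, at 0.0108 and 0.0398. With such pairs as litter blocks, 1 gene in each compartment had an unadjusted p under 0.05 between genotypes, as without the block. Whether a shared number marks a shared litter is not given in the sources used here.

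The filter on signal left 26 of the 36 genes in the epithelial comparisons and 33 in the stroma, and the dimmest genes, Esm1 among them, are limited by signal near the bottom of the array.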
